A study of Mus musculus with 8 samples.

Results

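P14 cells are CD8 T cells that carry a transgenic T cell receptor (TCR) for GP33, a peptide of lymphocytic choriomeningitis virus (LCMV). T_Dysf cells, which were stimulated for the whole culture, were compared here with Acute-2d cells, which saw a stimulus only in its first days. The comparison took 4 of the 8 libraries of the series, T_Dysf replicates 1 and 2 and Acute-2d replicates 1 and 2, and all 24303 entries of the gene table. The members were chosen by these group labels and not by any measured value.

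Both groups began as naive CD8 T cells from the spleens of uninfected P14 transgenic mice at least 8 weeks old. The study as a whole used mice of either sex. Both groups were activated on plates coated with anti-CD3 and anti-CD28 until day 2. The cells were then pooled and kept in medium with 20 IU/mL IL-2 and 10 ng/mL IL-15. Acute-2d cells received no GP33 after that. T_Dysf cells received 0.3 µg/mL GP33 repeatedly until day 19, with 5 ng/mL TGF-β1 added from day 7. All were sorted as viable CD8 T cells on day 19, so that *Cd8a* was under a gate in both groups. Acute-7d cells, which received GP33 until day 7 and then rested, and Effector cells, collected on day 7, share the first steps and serve as reference values. Continued peptide and TGF-β1 were given together and only to T_Dysf cells, and the contrast cannot tell them apart. All groups are cultured cells of 1 TCR specificity, with IL-2 and IL-15 supplied by the medium.

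T cell exhaustion is the state that CD8 T cells reach when antigen persists, as in chronic infection and tumors. Exhausted cells carry several inhibitory receptors at once, lose the transcription factor TCF-1 as they become terminal, and produce cytokines poorly when challenged. Memory CD8 T cells that have cleared their antigen keep TCF-1, the receptors for entry into lymph nodes and the capacity to expand again. TGF-β binds a pair of receptor kinases that phosphorylate SMAD2 and SMAD3, which enter the nucleus with SMAD4, and in CD8 T cells the pathway is best known for inducing CD103, the integrin that holds resident T cells in epithelia.

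Each of the 4 libraries had 20208641 to 24856195 reads assigned to genes. None carries the RESUB prefix that marks 3 of the other libraries. *Xist* stood at 21871 to 26861 normalized counts in the 4, and the Y-linked genes *Ddx3y*, *Eif2s3y*, *Kdm5d* and *Uty* at 0 to 7.77. This is the pattern of female cells in all 4, so neither split separates the groups compared. The Acute-7d pair, which enters the error of every test, spans both splits. T_Dysf replicate 1 stood apart. A share of 50.97% of its values were whole multiples of 1 read, against 72.0% to 74.6% in the 7 other libraries, and 138 entries with at least 50 reads in each of the 7 other libraries were under 3 reads there. Of these, 135 are not protein-coding, and 0 were differentially expressed genes (DEGs). They were picked by a gap inside the T_Dysf pair that leaves little room for a call, so this 0 says nothing about other genes. The values are normalized counts, gene-level read estimates that the authors divided by a size factor for each library. A gene was called a DEG where it differed by at least 2-fold at an adjusted p under 0.05 (Benjamini-Hochberg, over all 24303 genes), from limma on log2(normalized count + 1). All adjusted p-values below come from that fit. Log2 fold changes are given ± their standard error (SE) where an error is printed. The study calls the 2 RNA-Seq libraries of a group biological replicates. Nothing in the labels says that they came from separate mice or cultures, so the p-values measure the spread between these samples, which may be technical. With 2 libraries against 2, an exact permutation test cannot give a two-sided p under 0.333.

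Between T_Dysf and Acute-2d cells, 1787 of 24303 genes were DEGs, or 7.35% of all genes tested. Of these, 764 (3.14%) were higher and 1023 (4.21%) lower in T_Dysf. The changes were wide in both directions: 388 DEGs rose and 497 fell by at least 4-fold, and 24 rose and 27 fell by at least 64-fold. The libraries of the groups did not overlap for any of the 1787 genes, but 54.3% of all genes do not overlap in a comparison of 2 with 2. A mean under 10 normalized counts was found for 283 of the DEGs. The gene lists described below hold 519 measured genes, and 158 of them (30.4%) were DEGs. The plot of all genes shows the spread at each level. The count rested on the libraries in the fit. It was 656 without T_Dysf replicate 1, 841 without Acute-2d replicate 1, 1239 without Acute-2d replicate 2 and 1867 without T_Dysf replicate 2, while 1727 to 1746 of the 1787 genes still differed at least 2-fold the same way. It was 1378 with a term for the RESUB libraries and 1306 without those libraries, and 1257 and 1021 of these were among the 1787. Of the 171 DEGs named here and in the closing observations, 66 remained DEGs in each of 16 alternative fits that tested them, which changed the libraries, the scaling, the filter or the model. A fold change of at least 2 was kept throughout by 160 of the 171, and leaving out T_Dysf replicate 1 ended 97 of the calls.

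**Figure D1:**
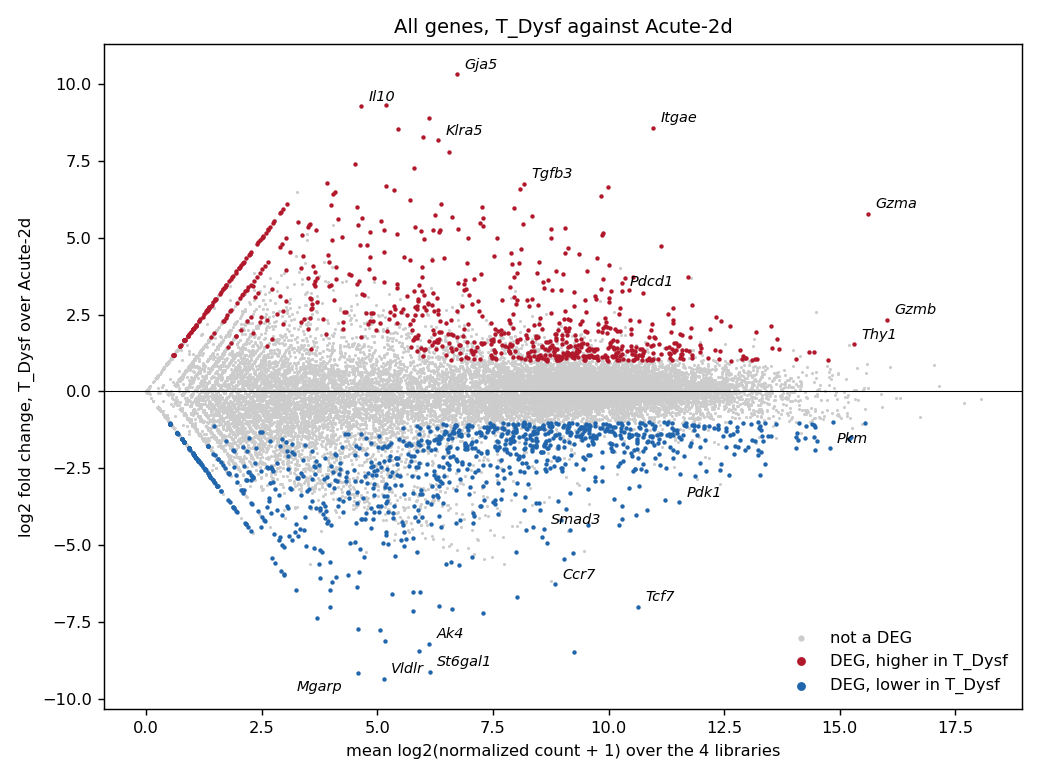
Each point is 1 of the 24303 genes, with the mean of log2(normalized count + 1) over the 4 libraries on the horizontal axis and the log2 fold change (T_Dysf over Acute-2d) on the vertical axis. Red points are the 764 DEGs higher in T_Dysf, blue points the 1023 lower and grey points the remaining genes. *Gzma* and *Gzmb* lie far to the right among the rises and *Pkm* among the falls, and the diagonal edges at the left are genes at or near 0 in 1 of the groups.

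The largest rises began from a few reads. *Gja5* (chromosome 3, 97032402 to 97053634), which encodes the gap junction protein connexin 40, had 1.06 and 3.24 normalized counts in Acute-2d and 3585 and 4001 in T_Dysf. Its log2 fold change of 10.32 ± 0.47 (SE, adjusted p = 0.00138) was the largest among DEGs whose mean reached 100 normalized counts. *Il10* (chromosome 1, 131019845 to 131024970), an anti-inflammatory cytokine, was at 0 in both Acute-2d libraries and had 615 and 637 normalized counts in T_Dysf, at least 196-fold higher than a floor of 3 reads per library. *Itgae* (chromosome 11, 73090505 to 73147449), the CD103 subunit of the integrin for E-cadherin, went from 101 and 100.4 to 40456 and 37825, a log2 fold change of 8.59 ± 0.22 (SE, adjusted p = 0.000222). Both T_Dysf libraries lay above both Acute-2d libraries for each of these genes, which the rule that picked them required.

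*S1pr3* (chromosome 13, 51408618 to 51422797), a receptor for sphingosine 1-phosphate, had 4.21 and 0 normalized counts in Acute-2d and 766 and 929 in T_Dysf, a log2 fold change of 8.53 ± 0.85 (SE, adjusted p = 0.00793). *Spsb1* (chromosome 4, 149896283 to 149955006), an adaptor of ubiquitin ligases that acts on the TGF-β receptor, went from 8.43 and 3.24 to 1359 and 1437. *Tgfb3* (chromosome 12, 86056743 to 86079041), which encodes a TGF-β ligand, went from 27.4 and 25.9 to 2756 and 3228, with a log2 fold change of 6.75 ± 0.23 (SE, adjusted p = 0.000638). *Clec12a* (chromosome 6, 129349783 to 129365303), an inhibitory C-type lectin better known from myeloid cells, went from 2.11 and 5.40 to 639.6 and 732. *Msrb3*, a methionine sulfoxide reductase, had a log2 fold change of 6.68. *Ky*, a muscle peptidase gene, stood at 2.11 and 0 in Acute-2d and 302 and 292 in T_Dysf, a ratio of reads of 279 with a 95% counting interval of 76.8 to 2305. *Apol9b* and *Klra5* belong to families of near-identical genes whose reads may be shared, and their log2 fold changes of 8.89 and 8.17 are uncertain for that reason. The last of the 12, the immunoglobulin heavy chain gene *Igha*, is described with the markers of other cells. *Gja5*, *Il10*, *Itgae*, *Spsb1*, *Tgfb3*, *Clec12a* and *Igha* remained DEGs in all 16 alternative fits, and the other called genes lost the call in at least 1.

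The largest falls were as deep. *Vldlr* (chromosome 19, 27216480 to 27254231), a lipoprotein receptor, had 795 and 1010.5 normalized counts in Acute-2d and 0 and 0.890 in T_Dysf, where 1 read was left in all. The ratio of reads was 2058, with a 95% counting interval of 369 to 81320.0. *Mgarp* (chromosome 3, 51388412 to 51396547), a mitochondrial protein gene, had 503 and 643 in Acute-2d and was at 0 in both T_Dysf libraries, at least 218-fold lower. *St6gal1* (chromosome 16, 23224729 to 23360350), the sialyltransferase that caps N-glycans on lymphocytes, fell from 1726 and 1597 to 7.77 and 0, a log2 fold change of -9.13 ± 1.03 (SE, adjusted p = 0.0103). *Ak4* (chromosome 4, 101416478 to 101467771), a mitochondrial adenylate kinase, fell from 1058 and 1370.1 to 2.59 and 3.56, with a log2 fold change of -8.22 ± 0.19 (SE, adjusted p = 0.000176). The groups did not overlap for these 4 genes, which the rule that picked them also required.

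The integrin gene *Itga7* (chromosome 10, 128933421 to 128958286) fell from 981 and 1265 to 2.59 and 1.78 normalized counts, a log2 fold change of -8.46 ± 0.49 (SE, adjusted p = 0.00245). *P4ha2*, a subunit of the prolyl hydroxylase that modifies collagen, fell from 1463 and 2461 to 15.5 and 8.90. *Dntt*, the terminal transferase that adds bases during receptor rearrangement, had 349 and 348 in Acute-2d and 1.73 and 0 in T_Dysf, and its ratio of reads was 397 with a 95% counting interval of 109.5 to 3288. For *Slc6a19*, a transporter of neutral amino acids, the ratio was 375 with an interval of 128 to 1821. These intervals cover counting error only. The cyclic nucleotide phosphodiesterase gene *Pde2a* was uneven within T_Dysf, at 0.00468 and 20.2 against 733 and 582 in Acute-2d, and its adjusted p was 0.0448. *Tdrp* and *Nsg2* had log2 fold changes of -8.13 and -7.07. Across the 16 alternative fits *Vldlr*, *Mgarp*, *Ak4*, *Itga7* and *Slc6a19* stayed DEGs throughout, unlike the other called genes.

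**Figure D2:**
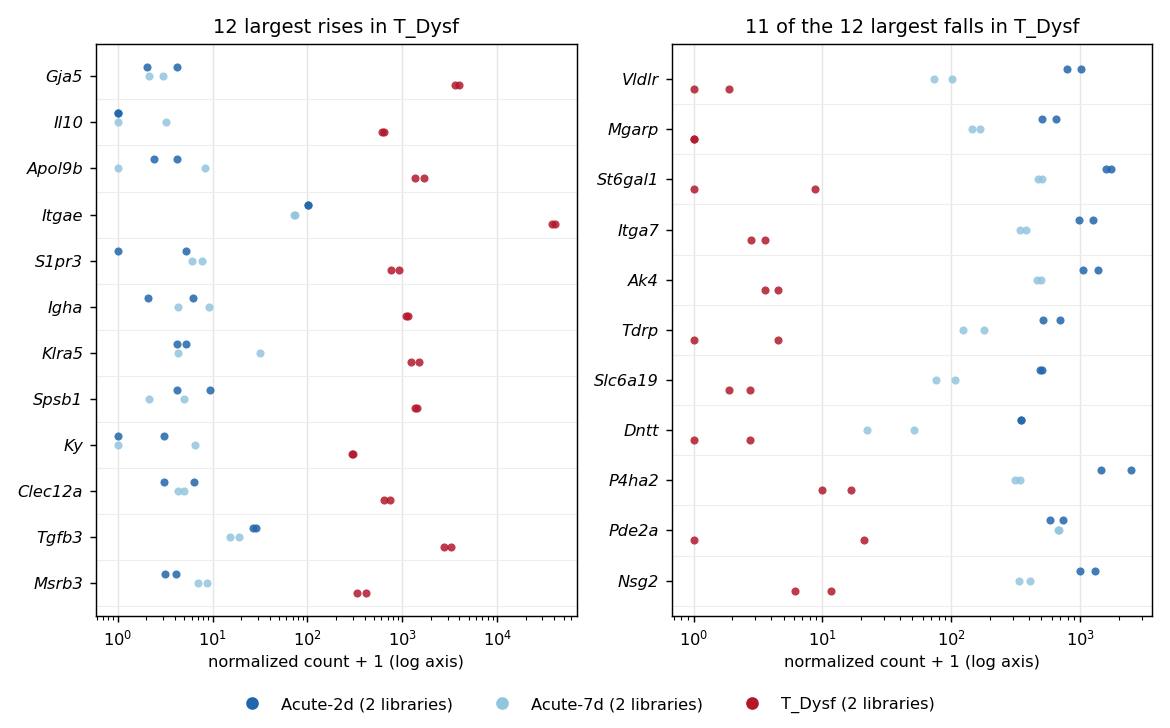
The horizontal log axis gives the normalized count plus 1, and each row is 1 gene with a point for each library of Acute-2d (dark blue), Acute-7d (light blue) and T_Dysf (red). The left panel holds the 12 largest rises and the right panel 11 of the 12 largest falls. In every row the T_Dysf points stand clear of the Acute points of both kinds, which for Acute-2d the choice of genes required.

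Some genes were on in 1 group and off in the other. Counting protein-coding genes with at most 3 reads in both libraries of 1 group and at least 100 in both of the other gave 11 genes that were high in T_Dysf and 10 that were high in Acute-2d, and all 21 were DEGs. The 11 were *Apol9a*, *Apol9b*, *Cdc20b*, *Chl1*, *Gja5*, *Il10*, *Ky*, *Msrb3*, *Rapsn*, *Slc4a4* and *Tmem132e*. The 10 were *Dapl1*, *Dntt*, *Fbxo10*, *Itga7*, *Mapk12*, *Mgarp*, *Npas2*, *Slc6a19*, *Smtnl2* and *Vldlr*. In Acute-7d, 4 of the 11 were likewise at or under 3 reads in both libraries and none reached 100 in both. Of the 10, none was at the floor in Acute-7d, and 2 had at least 100 reads in both libraries. In Effector, 7 of the 11 were at the floor in both libraries and 0 reached 100 in both, though *Chl1* had 305 and 73.2 normalized counts there. Of the 10, 1 was at the floor in Effector and 1, *Dapl1*, reached 100 in both, with 157 and 491.

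The bases before the start sites of 4 of the genes that rose are shown, because these genes include the largest rise in fold (*Gja5*) and in counts (*Gzma*) and because each window holds a motif of a factor of the TCR or TGF-β pathway. The sequences are the 250 bases before the start of the gene, 5′ to 3′ on the strand of the gene, from RefSeq on GRCm38.p6, and for *Clec12a* the start that this table uses lies inside the gene span given above. Capitals mark the motifs searched on both strands: CAGACA for SMAD, TGANTCA for AP-1 and GGAAAA for NFAT. In *Gja5* (chr3:97032152-97032401, plus strand) the capitals mark NFAT, in *S1pr3* (chr13:51408368-51408617, plus strand) SMAD, in *Clec12a* (chr6:129349994-129350243, plus strand) AP-1 and then SMAD, and in *Gzma* (chr13:113100982-113101231, minus strand) NFAT.
Gja5: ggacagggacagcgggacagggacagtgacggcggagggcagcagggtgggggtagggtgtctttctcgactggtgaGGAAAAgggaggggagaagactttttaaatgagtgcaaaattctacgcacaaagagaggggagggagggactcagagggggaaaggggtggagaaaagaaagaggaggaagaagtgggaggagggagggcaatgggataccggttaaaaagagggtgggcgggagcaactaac
S1pr3: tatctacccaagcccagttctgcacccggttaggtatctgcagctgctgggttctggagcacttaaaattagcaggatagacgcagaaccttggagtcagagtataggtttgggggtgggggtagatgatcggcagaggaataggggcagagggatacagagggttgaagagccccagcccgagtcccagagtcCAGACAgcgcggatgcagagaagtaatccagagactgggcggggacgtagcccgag
Clec12a: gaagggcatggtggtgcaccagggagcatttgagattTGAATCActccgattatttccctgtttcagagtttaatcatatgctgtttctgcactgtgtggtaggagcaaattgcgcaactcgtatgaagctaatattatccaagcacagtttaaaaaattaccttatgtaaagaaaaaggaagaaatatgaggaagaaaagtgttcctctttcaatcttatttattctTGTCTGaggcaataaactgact
Gzma: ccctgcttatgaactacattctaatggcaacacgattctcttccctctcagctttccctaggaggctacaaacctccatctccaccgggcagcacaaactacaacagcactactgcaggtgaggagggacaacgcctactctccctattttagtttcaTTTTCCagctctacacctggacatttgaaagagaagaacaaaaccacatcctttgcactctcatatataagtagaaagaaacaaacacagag

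Windows of 32 among 43 genes named here could be searched. SMAD letters were found in 6 of the 32, NFAT letters in 6, AP-1 letters in 2, the TCF/LEF letters TTCAAAG in 1 and the E-box CACGTG in 0. Over 27025 RefSeq promoter windows of the same length the shares were 17.07% for SMAD, 20.64% for NFAT, 6.868% for AP-1, 4.636% for TCF/LEF and 6.046% for the E-box. The genes with SMAD letters included *Slc6a19*, *Pde2a* and *Bach2*, and those with NFAT letters *Ak4*, *Pde2a* and *Aldoa*, all of which fell. None of the motifs contains another. A match of these letters is a description and not a site.

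Genes of the TGF-β pathway moved in both directions, and *Smad3*, its signal transducer, fell. Of 30 receptors, targets and feedback genes, 9 rose, 3 fell and 18 did not pass, and the median log2 fold change was -0.27 against 0.00 over all genes. Beside *Itgae*, *Spsb1* and *Tgfb3*, the rises included *Ldlrad4*, which keeps SMAD2 and SMAD3 from the receptor, from 65.3 and 44.3 to 1484 and 1256 normalized counts, a log2 fold change of 4.64 ± 0.34 (SE, adjusted p = 0.00400). *Pmepa1* (chromosome 2, 173224458 to 173276731), a close relative of *Ldlrad4* with the same role, went from 127 and 111 to 1693 and 1950.1, with a log2 fold change of 3.92. *Skil* and *Ski*, which repress SMAD-driven transcription, rose by 1.76 and 1.35 on the log2 scale. The receptor gene *Tgfbr1* and the ubiquitin ligase gene *Smurf2* rose by 1.13 and 1.09.

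*Smad3* (chromosome 9, 63646766 to 63757994), which carries the signal from the receptor to the nucleus, fell from 1844 and 1856 normalized counts to 68.2 and 96.1, a log2 fold change of -4.50 ± 0.30 (SE, adjusted p = 0.00348). *Lrrc32*, which encodes GARP, the protein that docks latent TGF-β on the cell surface, fell from 2505 and 1629 to 186 and 108, and the corepressor gene *Tgif1* from 458 and 384 to 202 and 202. The groups did not overlap for these 3 genes, which held for each of the 1787 DEGs and for 54.3% of all genes. *Smad7*, the feedback inhibitor that TGF-β usually induces, was not a DEG, at 1318 and 1555 and 1029.8 and 909 (log2 fold change -0.56, adjusted p = 0.0847). *Smurf1* was also not a DEG, with a log2 fold change of -0.17 and an adjusted p of 0.469. With 1 library left out, between 5 and 8 of the list were called higher and between 1 and 2 lower. Of these genes, *Smad3*, *Itgae*, *Spsb1*, *Tgfb3*, *Ldlrad4* and *Ski* kept the call in every alternative fit.

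Of 13 measured genes of tissue residency, 3 rose and 0 fell, and the 3 were *Itgae*, *Litaf* and *Itga1*. Another count, at an unadjusted p under 0.05, gave 7 higher and 2 lower, beside 6735 of the 24303 genes tested. *Litaf*, a regulator of endosomal sorting, rose from 392 and 419.9 to 5093 and 5662 normalized counts, a log2 fold change of 3.72 ± 0.10 (SE, adjusted p = 0.000223). *Itga1*, the CD49a chain that binds collagen, rose from 1334 and 1332 to 9359 and 9508, a log2 fold change of 2.82. *Cdh1*, which encodes E-cadherin, the ligand of CD103, had 819 and 1162 normalized counts in Acute-2d and 12261 and 13187 in T_Dysf without passing the test (log2 fold change 3.70, adjusted p = 0.0804). In the fit of T_Dysf and Acute-2d alone 5 were called higher, *Cdh1* among them, and 6 among genes with a mean of at least 50. *Cd69*, an early activation and residency marker, stood at 7469 and 7178 and 7866 and 8298, with an adjusted p of 0.531. The calls of *Itgae*, *Litaf* and *Itga1* held in all 16 alternative fits.

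Most genes on a list of inhibitory receptors and exhaustion markers rose in T_Dysf cells, and *Ctla4* fell. The list also holds the enzyme genes *Cd38*, *Entpd1* and *Nt5e* and the ligand genes *Cd274* and *Pdcd1lg2*. Of 20 genes, 12 rose and 1 fell, with a median log2 fold change of 1.34. *Pdcd1* (chromosome 1, 94038305 to 94052553), the gene for PD-1, had 352 and 462 normalized counts in Acute-2d and 3754 and 4022 in T_Dysf, a log2 fold change of 3.27 ± 0.20 (SE, adjusted p = 0.00279). *Havcr2*, which encodes Tim3, went from 311 and 263 to 2763 and 3060.3, a log2 fold change of 3.34 ± 0.31 (SE, adjusted p = 0.00671). *Tigit*, a receptor for nectin-family ligands, went from 236 and 153 to 3097 and 2665, with a log2 fold change of 3.91. *Lag3*, a receptor for MHC class II, rose least of these 4, from 1807 and 2270.3 to 4645 and 4823 (log2 fold change 1.22, adjusted p = 0.0428).

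The rises reached beyond the best-known receptors. *Cd244a* (2B4), a receptor of the SLAM family, had 356 and 367 normalized counts in Acute-2d and 4625 and 4737 in T_Dysf, a log2 fold change of 3.69 ± 0.47 (SE, adjusted p = 0.0138). *Cd96* went from 2535 and 2452 to 12048 and 12188. *Cd101*, a marker of terminal exhaustion, went from 201 and 165 to 707 and 577, and *Cd38*, which consumes NAD, from 152 and 168 to 1566 and 1567. *Entpd1* (CD39) and *Nt5e* (CD73), which together turn extracellular ATP into adenosine, rose by 1.33 and 1.36 on the log2 scale. *Cd200r1* and its family member *Cd200r2*, whose reads may be shared, had log2 fold changes of 1.48 and 5.43.

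*Ctla4* (chromosome 1, 60909025 to 60915832), which competes with CD28 for its ligands, fell from 3930.4 and 4192 normalized counts in Acute-2d to 1685 and 1339.8 in T_Dysf, a log2 fold change of -1.43 ± 0.12 (SE, adjusted p = 0.00547). *Cd274*, which encodes the PD-1 ligand PD-L1, had 7835 and 2704 normalized counts in Acute-2d, with replicate 1 well above replicate 2, and 857 and 919 in T_Dysf (log2 fold change -2.37, adjusted p = 0.0727). The remaining genes of the list that did not pass had log2 fold changes between -1.17 for *Klrg1* and 1.01 for *Pdcd1lg2*. With 1 library left out, between 4 and 7 genes of the list were called higher, fewest without T_Dysf replicate 1. Only *Ctla4*, *Pdcd1*, *Havcr2*, *Cd96* and *Cd101* stayed DEGs in all 16 alternative fits.

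**Figure D3:**
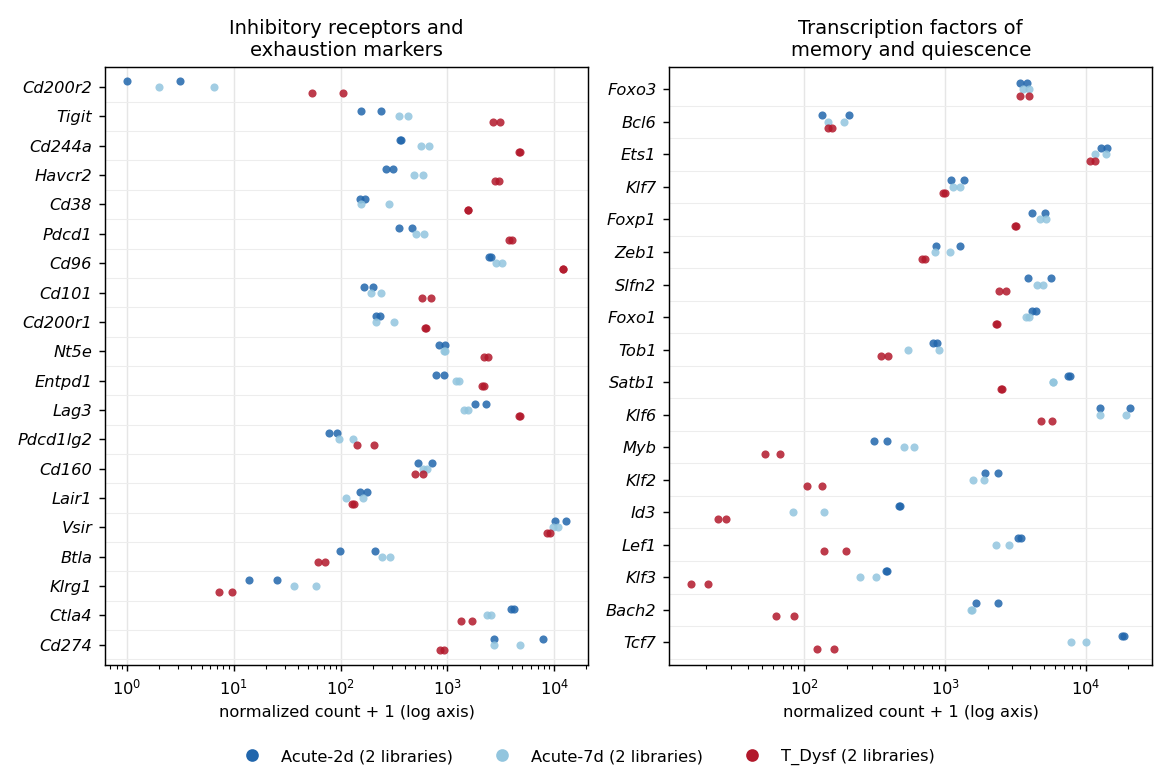
The horizontal log axes give the normalized count plus 1, with a point for each library of Acute-2d (dark blue), Acute-7d (light blue) and T_Dysf (red), and genes are ordered by their log2 fold change of T_Dysf over Acute-2d. Among the inhibitory receptors and exhaustion markers the red points lie to the right down to *Lag3* and to the left for *Ctla4*. Among the transcription factors of memory they lie to the left for *Tcf7*, *Bach2*, *Klf3*, *Lef1*, *Id3* and *Klf2*.

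Transcription factors of memory and quiescence fell in T_Dysf and none rose. Of 18 genes, 10 fell and 0 rose (unadjusted p under 0.05 in 0 higher), and the median log2 fold change was -1.39. *Tcf7* (chromosome 11, 52246527 to 52283383), which encodes TCF-1, fell from 17888 and 18473 to 161 and 122 normalized counts, a log2 fold change of -7.01 ± 0.63 (SE, adjusted p = 0.00626). *Lef1*, its closest relative, fell from 3454 and 3297 to 198 and 137, a log2 fold change of -4.35 ± 0.20 (SE, adjusted p = 0.00144). *Bach2*, a repressor that holds back effector genes, fell from 2349.6 and 1639 to 62.1 and 82.7. The Krüppel-like factor genes *Klf2* and *Klf3* had log2 fold changes of -4.18 and -4.41, from 1922 and 2384 to 104 and 133 for *Klf2*, which keeps T cells in circulation. *Id3*, a partner of E proteins in memory cells, fell from 467 and 474 to 23.3 and 26.7. *Myb*, *Klf6*, *Satb1* and *Tob1* had log2 fold changes of -2.55, -1.62, -1.57 and -1.20.

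*Foxo1*, which drives *Klf2* and *Il7r* in resting T cells, had 4372 and 4154 normalized counts in Acute-2d and 2299 and 2344 in T_Dysf, an adjusted p of 0.00238 but a change short of 2-fold (log2 fold change -0.88). With 1 library left out, 6 to 7 of the list were called lower. In every alternative fit *Tcf7*, *Lef1*, *Bach2*, *Klf2*, *Klf3* and *Satb1* remained DEGs, and the remaining calls were lost at least once.

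Among 16 transcription factors of exhaustion and effector cells, 3 rose and 0 fell (unadjusted p under 0.05 in 0 lower). *Hic1*, a repressor found in intestinal resident T cells, rose from 117 and 159.8 to 1682 and 2214 normalized counts, a log2 fold change of 3.81 ± 0.28 (SE, adjusted p = 0.00411). *Ikzf3*, which encodes Aiolos, rose from 1819 and 1630.1 to 6891 and 7350.2, a log2 fold change of 2.05 ± 0.13 (SE, adjusted p = 0.00302). *Zfp683*, which encodes Hobit, had a log2 fold change of 1.28. *Tox*, the factor that programs exhausted chromatin, stood at 85.3 and 55.1 and 245 and 234 and did not pass (log2 fold change 1.79, adjusted p = 0.0800). *Prdm1* (Blimp-1) also did not pass, with a log2 fold change of 1.40 and an adjusted p of 0.146. *Eomes*, a T-box factor, overlapped between the groups, with 1321 and 1127 normalized counts in Acute-2d and 828 and 1202 in T_Dysf. *Hic1* and *Ikzf3* remained DEGs in all 16 alternative fits, and the other called genes lost the call in at least 1.

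Of 27 genes induced by TCR signals, 4 rose and 1 fell. *Nr4a2*, a nuclear receptor of the NR4A family, rose from 165 and 73.4 to 1368 and 1282 normalized counts, a log2 fold change of 3.57 ± 0.46 (SE, adjusted p = 0.0139). *Spry2*, an inhibitor of ERK signaling, rose from 220.1 and 175 to 1726 and 2008. *Rgs16* and *Tnfrsf9* (4-1BB) rose by 2.03 and 1.05 on the log2 scale. *Myc*, the growth regulator that TCR signals induce, fell from 15615 and 15287 to 4537 and 4228, a log2 fold change of -1.82 ± 0.22 (SE, adjusted p = 0.0121). *Egr3* and *Nr4a1* stood higher in both T_Dysf libraries without passing, at log2 fold changes of 2.94 and 1.82 and adjusted p of 0.0745 and 0.0631. Without T_Dysf replicate 1 or without T_Dysf replicate 2, 0 members of the list were called higher. None of these calls held in every alternative fit.

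Of 23 genes of granzymes, perforin and granules, 9 rose, 2 fell and 12 did not pass, with a median log2 fold change of 0.76. Together they made up 0.428% and 0.456% of the totals in Acute-2d and 3.04% and 2.93% in T_Dysf. In T_Dysf *Gzma* alone made up 1.78% and 1.65% of the totals and *Gzmb* 0.697% and 0.689%. *Gzma* (chromosome 13, 113093824 to 113100981) went from 6609.8 and 6817 to 380972 and 357778 normalized counts, a log2 fold change of 5.78 ± 0.36 (SE, adjusted p = 0.00279). *Gzmb* (chromosome 14, 56258836 to 56262334), whose protease triggers caspases in target cells, went from 27601 and 31971 to 149579 and 149509, a log2 fold change of 2.33 ± 0.22 (SE, adjusted p = 0.00671). *Gzmk* went from 48.4 and 48.6 to 1149 and 1112, with a log2 fold change of 4.51.

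*Prf1*, the pore former perforin, rose from 1623 and 1642 to 5876 and 5767 normalized counts (log2 fold change 1.83, adjusted p = 0.0223). *Tnfsf10*, which encodes the death ligand TRAIL, rose from 1227 and 909 to 6539 and 7324. *Gzmf*, *Ctsw*, *Ctsd* and *Nkg7* had log2 fold changes of 2.02, 1.72, 1.29 and 1.06. *Gzme* went the other way, from 946 and 1122 to 289 and 165, as did *Ctsl*, with log2 fold changes of -2.23 and -1.34. *Gzmc* did not pass, at 7923 and 6818 and 13739 and 11983 (adjusted p = 0.549). *Gzmc*, *Gzme* and *Gzmf* are near-identical neighbours whose reads may be shared, so their separate values are uncertain. Between 3 and 4 genes of the list were called higher with 1 library left out. Across the 16 alternative fits *Gzma*, *Gzmk* and *Tnfsf10* stayed DEGs throughout, unlike the other called genes.

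Of 27 cytokine and chemokine genes, 4 rose and 3 fell. *Ccl3* and *Ccl4*, inflammatory chemokines of activated T cells, went from 59.0 and 32.4 to 2442 and 2266 and from 75.8 and 91.8 to 3633 and 3091 normalized counts, log2 fold changes of 5.72 and 5.31. *Ifng* (chromosome 10, 118441046 to 118445894) went from 311 and 221 to 3441 and 3230.1, a log2 fold change of 3.66 ± 0.31 (SE, adjusted p = 0.00565). The lymphotoxin gene *Ltb*, the cytokine gene *Osm* and the CD30 ligand gene *Tnfsf8* fell by 1.605, 2.36 and 2.60 on the log2 scale, from 4396 and 2998 to 506 and 708 for *Tnfsf8*. *Tnf* did not differ beyond its spread, at 835 and 914 in Acute-2d and 761 and 815 in T_Dysf (adjusted p = 0.934). *Lif* had 3910.4 and 3437 normalized counts in Acute-2d and 38.8 and 63.2 in T_Dysf and just missed the threshold (log2 fold change -6.18, adjusted p = 0.0557). *Ccl5* had 8829.6 and 9923 and 53499.7 and 60019.9, with an adjusted p of 0.116. Of these genes, *Ccl4* and *Ifng* kept the call in every alternative fit.

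Of 22 chemokine and egress receptor genes, which guide T cells through lymph nodes, blood and tissue, 3 rose, 6 fell and 13 did not pass. *Ccr7* (chromosome 11, 99144199 to 99155077), which brings T cells into lymph nodes, fell from 3072 and 5304 to 38.9 and 66.7 normalized counts, a log2 fold change of -6.28 ± 0.76 (SE, adjusted p = 0.0124). *S1pr1* (chromosome 3, 115710433 to 115715055), which lets them leave, fell from 3070.0 and 3918 to 68.2 and 89.0, a log2 fold change of -5.46 ± 0.22 (SE, adjusted p = 0.00108), while its relative *S1pr3* rose. *Cxcr4*, *Ccr4*, *Cxcr3* and *P2ry10* fell by 4.001, 2.41, 1.38 and 1.19 on the log2 scale. The fractalkine receptor gene *Cx3cr1* rose from 13.7 and 4.32 to 87.2 and 67.6, a log2 fold change of 3.14 ± 0.63 (SE, adjusted p = 0.0415). *S1pr4* was lower in both T_Dysf libraries and did not pass (log2 fold change -1.34, adjusted p = 0.0847). Without T_Dysf replicate 1, 0 members were called higher and 2 lower. Only *S1pr1* and *Cxcr4* stayed DEGs in all 16 alternative fits.

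Integrins and adhesion molecules split. Of 29 genes, 6 rose and 7 fell. Beside *Itgae*, the rises were in *Itgax* (CD11c), from 296 and 391 to 3306 and 3212 normalized counts, *Itgav*, from 1334 and 1149.8 to 5768 and 5881, *Jaml*, *Itga1* and *Cd96*. The log2 fold changes were 3.26 for *Itgax*, 2.23 for *Itgav* and 2.42 for *Jaml*. The partner chain of CD103, *Itgb7*, had 16412 and 20415 normalized counts in Acute-2d and 16812 and 16435 in T_Dysf (log2 fold change -0.14, adjusted p = 0.530). *Ly6c2*, a marker of memory CD8 T cells, fell from 24986 and 25805 to 3592 and 4028, a log2 fold change of -2.74 ± 0.10 (SE, adjusted p = 0.000670). *Itgb3*, *Itga5*, *Icam2* and *Itgb1* fell by 2.52, 1.87, 1.82 and 1.44 on the log2 scale. *Cd44*, the antigen-experience marker, fell from 1879.9 and 1869 to 797 and 825, a log2 fold change of -1.21 ± 0.04 (SE, adjusted p = 0.000537), and *Cd2* fell by 1.21. In every alternative fit *Itgae*, *Itgav*, *Jaml*, *Itga1*, *Cd96*, *Ly6c2*, *Itgb3*, *Itga5*, *Icam2*, *Cd44* and *Cd2* remained DEGs, and the remaining calls were lost at least once.

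Killer lectin and NK-type receptors, which CD8 T cells share with NK cells, rose more often than they fell. Of 30 genes, 11 rose, 1 fell and 18 did not pass, with a median log2 fold change of 2.36, or 2.13 with genes at 0 set to their bound. *Klrc1*, which encodes the inhibitory receptor NKG2A, rose from 649 and 496 to 5552 and 4829 normalized counts, a log2 fold change of 3.19 ± 0.52 (SE, adjusted p = 0.0254). *Fcer1g*, a signaling adaptor of activating receptors, rose from 55.8 and 57.2 to 924 and 1111, a log2 fold change of 4.14 ± 0.58 (SE, adjusted p = 0.0171). *Klre1* and *Klri2* rose by 3.46 and 3.73 on the log2 scale. *Klrb1f* fell from 124 and 103 to 23.3 and 28.5. *Klrd1*, the partner chain of NKG2A, had 3822 and 3151 and 11388 and 8829.7 (adjusted p = 0.163). The *Klra* and *Klrc* genes lie in clusters of near-identical copies, and counts for single members are uncertain. Without T_Dysf replicate 1 or without Acute-2d replicate 1, 0 members of the list were called higher. None of these calls held in every alternative fit.

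Of 2 NK cell markers, *Ncr1* and *Klrb1c*, 0 were DEGs and 1 was lower at an unadjusted p under 0.05 by limma. *Ncr1* had 2.59 and 1.78 normalized counts in T_Dysf against 20.01 and 24.8 in Acute-2d. The sums over both markers overlapped, at 245 and 545 in T_Dysf against 450 and 418 in Acute-2d, and *Klrb1c* held most of them. Markers of plasma cells did move. Of 4 plasma cell genes, 3 rose: *Igha* (chromosome 12, 113256204 to 113260236) from 5.27 and 1.08 to 1086 and 1154, the joining chain gene *Jchain* from 7.37 and 5.40 to 236 and 275, and *Sdc1* from 6.32 and 4.32 to 113 and 148. *Xbp1*, the factor of secretory cells, was level at 2181 and 1869 and 2072 and 2068. Over 5 B cell, 5 myeloid, 3 dendritic, 3 erythroid and 3 CD4 T cell markers, 0 were DEGs by limma, and 0 of them had an unadjusted p under 0.05. *Cd4* was at 1.05 and 1.08 normalized counts in Acute-2d and 3.45 and 2.67 in T_Dysf, near the floor of 3 reads. In these bulk samples a change in the share of a cell type and a change of RNA per cell cannot be told apart. The part of the plasma cell markers in other results was not tested. *Igha* and *Sdc1* remained DEGs in all 16 alternative fits, and the other called genes lost the call in at least 1.

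Of 11 T cell identity genes, 3 rose and 0 fell (unadjusted p under 0.05 in 0 lower). *Thy1* rose from 21361 and 26736 to 66131 and 71779.9 normalized counts, a log2 fold change of 1.53 ± 0.15 (SE, adjusted p = 0.00785), and the CD3 chain genes *Cd3g* and *Cd3e* rose by 1.27 and 1.06 on the log2 scale. *Cd8a*, on which the cells were sorted, stood at 22007 and 18853 and 35908 and 36163 (adjusted p = 0.142). Without T_Dysf replicate 1, 0 of the 3 rises were called.

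Of 31 signaling genes downstream of the TCR, 1 rose and 2 fell, a share near that of all genes, with a median log2 fold change of 0.01. At an unadjusted p under 0.05, 9 were higher and 7 lower, beside 6735 of the 24303 genes tested. *Ptpn6*, which encodes the phosphatase SHP-1, rose from 2267 and 2554 to 6659 and 6961 normalized counts, a log2 fold change of 1.5 ± 0.13 (SE, adjusted p = 0.00555). *Dgka*, the kinase that removes diacylglycerol, fell from 12438 and 14316 to 4116 and 3523, a log2 fold change of -1.81 ± 0.11 (SE, adjusted p = 0.00279), and *Themis* fell by 1.15 on the log2 scale. *Zap70*, *Lck* and *Lat* had log2 fold changes of 0.67, 0.19 and 0.21 and were not DEGs. Across the 16 alternative fits *Ptpn6* and *Dgka* stayed DEGs throughout, unlike the other called genes.

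Of 19 costimulatory receptor genes, 5 fell and 2 rose, with a median log2 fold change of -0.53, or -0.45 with genes at 0 set to their bound. *Slamf6* (chromosome 1, 171917458 to 171948958), the Ly108 marker of progenitor cells, fell from 227 and 162 to 5.18 and 5.34 normalized counts, a log2 fold change of -4.95 ± 0.33 (SE, adjusted p = 0.00330). *Tnfrsf25* was at 0 in both T_Dysf libraries against 45.3 and 38.9 in Acute-2d. *Cd27* and *Cd5* fell by 1.22 and 1.35 on the log2 scale, and *Cd28* did not pass, at 3576 and 2946 and 2389.9 and 2551 (adjusted p = 0.336). *Cd80*, a ligand of CD28 and CTLA-4, rose from 264 and 255 to 664 and 741. Of these genes, *Slamf6* and *Cd80* kept the call in every alternative fit.

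Of 27 cytokine receptor genes, 3 rose and 7 fell. *Il2rb*, the chain shared by the receptors for the IL-2 and IL-15 in the medium, rose from 17900.0 and 20556 to 36512 and 40886 normalized counts, a log2 fold change of 1.01 ± 0.13 (SE, adjusted p = 0.0136), just over the limit of 2-fold. *Il21r* and *Tnfrsf1b* rose by 1.07 and 1.20. *Il4ra* fell from 10781 and 11399 to 3098 and 3207, a log2 fold change of -1.81 ± 0.11 (SE, adjusted p = 0.00260), and *Ifngr1* from 16785 and 16641 to 6304 and 6002. *Il6st*, *Il10ra* and *Il18r1* fell by 1.497, 1.14 and 1.02 on the log2 scale. *Il7r*, the survival receptor of memory cells, had 5885 and 6546 and 3374 and 3560.5, an adjusted p of 0.0116 but a log2 fold change of -0.84, short of 2-fold. Without T_Dysf replicate 1, 1 member was called higher and 2 lower. Only *Tnfrsf1b*, *Il4ra* and *Ifngr1* stayed DEGs in all 16 alternative fits.

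Transcripts of glycolysis were lower in T_Dysf at nearly every step. Of 27 genes of glucose uptake, glycolysis and lactate export, 20 fell and 0 rose (unadjusted p under 0.05 in 1 higher), with a median log2 fold change of -1.85. Their share was 1.30% and 1.64% of the totals in Acute-2d and 0.452% and 0.421% in T_Dysf. At the entry, the glucose transporter genes *Slc2a1* and *Slc2a3* fell from 4078 and 5872 to 1848 and 1673 and from 11937 and 15571 to 3211 and 3406 normalized counts, log2 fold changes of -1.48 and -2.04. *Hk2*, the inducible hexokinase, fell from 2945 and 3999.8 to 1257 and 971, while *Hk1* was not a DEG, at 7177 and 8760.5 and 5161 and 5309. At the committed step the phosphofructokinase genes *Pfkl* and *Pfkp* fell by 2.51 and 1.92 on the log2 scale.

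In the payoff steps *Tpi1* (chromosome 6, 124810586 to 124814158) fell from 13978 and 18322 to 2499 and 2309 normalized counts, a log2 fold change of -2.74 ± 0.14 (SE, adjusted p = 0.00189). *Pgk1*, the first enzyme of the pathway to make ATP, fell from 12103 and 14338 to 2391 and 2102, a log2 fold change of -2.55 ± 0.21 (SE, adjusted p = 0.00535). *Pkm*, which makes pyruvate, fell from 46378 and 61088 to 15185 and 14405, a log2 fold change of -1.85 ± 0.17 (SE, adjusted p = 0.00695). *Ldha* and the lactate exporter *Slc16a3* fell from 29662 and 36317 to 11379.9 and 11547 and from 2589.7 and 5287 to 321 and 335. *Pdk1* (chromosome 2, 71873215 to 71903858), which inhibits pyruvate dehydrogenase, had the deepest fall of the list, from 9586 and 11050.0 to 915 and 786. Its log2 fold change was -3.60 ± 0.14 (SE, adjusted p = 0.000889). The groups did not overlap for these genes, which held for each of the 1787 DEGs and for 54.3% of all genes. With 1 library left out, between 8 and 15 genes of the list were called lower, fewest without T_Dysf replicate 1. In every alternative fit *Pfkl*, *Pfkp*, *Tpi1*, *Pgk1* and *Pdk1* remained DEGs, and the remaining calls were lost at least once.

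**Figure D4:**
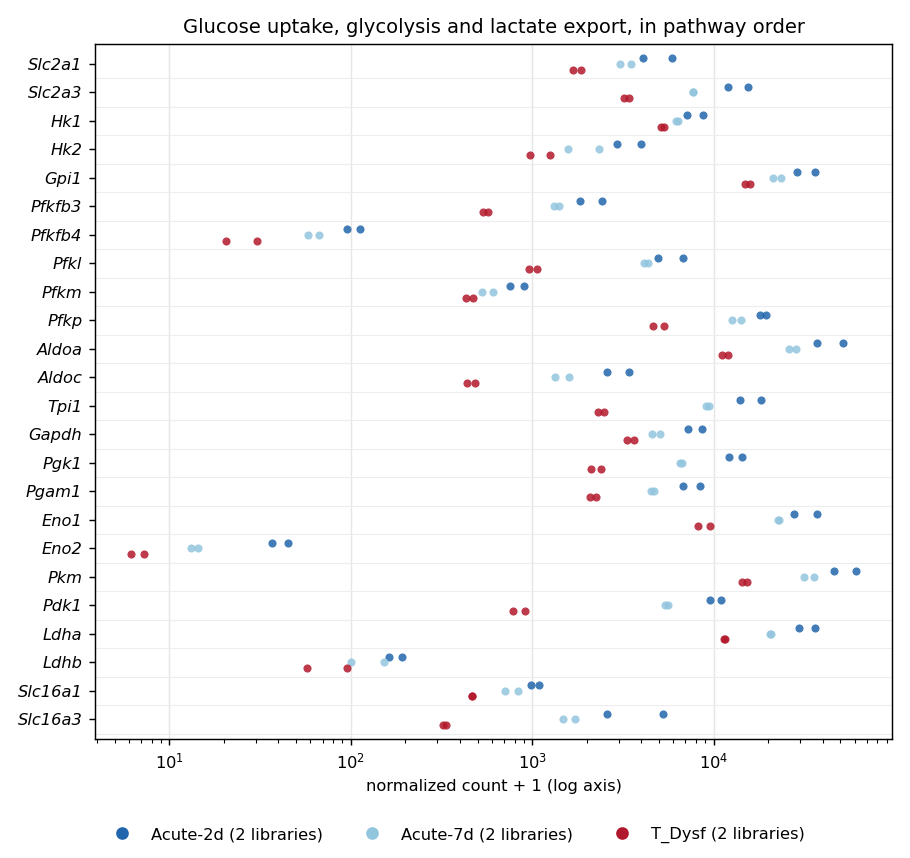
The horizontal log axis gives the normalized count plus 1, with a point for each library of Acute-2d (dark blue), Acute-7d (light blue) and T_Dysf (red), and rows follow the pathway from glucose uptake to lactate export. In each row the red points lie to the left of the dark blue ones, and the light blue points lie between them in nearly every row.

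Most of the interferon-stimulated genes that changed fell. Of 52 genes, 1 rose and 10 fell, with a median log2 fold change of -0.79. *Irf1*, a transcription factor that interferon-γ induces, fell from 25031 and 23399.9 to 4569.9 and 4888 normalized counts, a log2 fold change of -2.36 ± 0.36 (SE, adjusted p = 0.0220). *Igtp*, *Gbp4* and *Gbp6*, GTPases that interferon-γ induces, fell by 1.92, 1.44 and 1.44 on the log2 scale, and *Tap1*, the peptide transporter of antigen presentation, by 1.04. *Cmpk2* and *Rsad2*, antiviral enzymes, fell by 2.16 and 1.86. *Isg20*, an exonuclease, went the other way, from 854 and 985 to 3753 and 4623, a log2 fold change of 2.18 ± 0.20 (SE, adjusted p = 0.00645). Without T_Dysf replicate 1, 0 members were called lower. *Isg20* remained a DEG in all 16 alternative fits, and the other called genes lost the call in at least 1.

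Of 30 genes of survival and death, 0 rose and 2 fell, a share near that of all genes. The count at an unadjusted p under 0.05 was 8 higher and 7 lower, beside 6735 of the 24303 genes tested. *Fas* (chromosome 19, 34290647 to 34327775), the death receptor, fell from 324 and 334 to 25.03 and 14.2 normalized counts, a log2 fold change of -4.05 ± 0.32 (SE, adjusted p = 0.00501), and *Pim1* fell by 1.26. *Bcl2* had 16382 and 14631 in Acute-2d and 7991 and 8830.4 in T_Dysf, an adjusted p of 0.0167 with a log2 fold change of -0.88. Of 33 genes of sterol and fatty acid synthesis, 4 rose, among them *Elovl6*, *Lss* and *Tm7sf2* with log2 fold changes from 1.06 to 1.26. In 3 of the 4 fits with 1 library left out, 0 of them were called. Of 35 genes of serine synthesis, asparagine synthesis and stress responses, 2 rose and 1 fell, a share near that of all genes. *Sdf2l1* and *Creld2*, which work in the endoplasmic reticulum, rose by 1.94 and 1.11 on the log2 scale, and *Vldlr* fell. The plot of the gene lists shows their members by list. Across the 16 alternative fits *Fas* and *Vldlr* stayed DEGs throughout, unlike the other called genes.

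**Figure D5:**
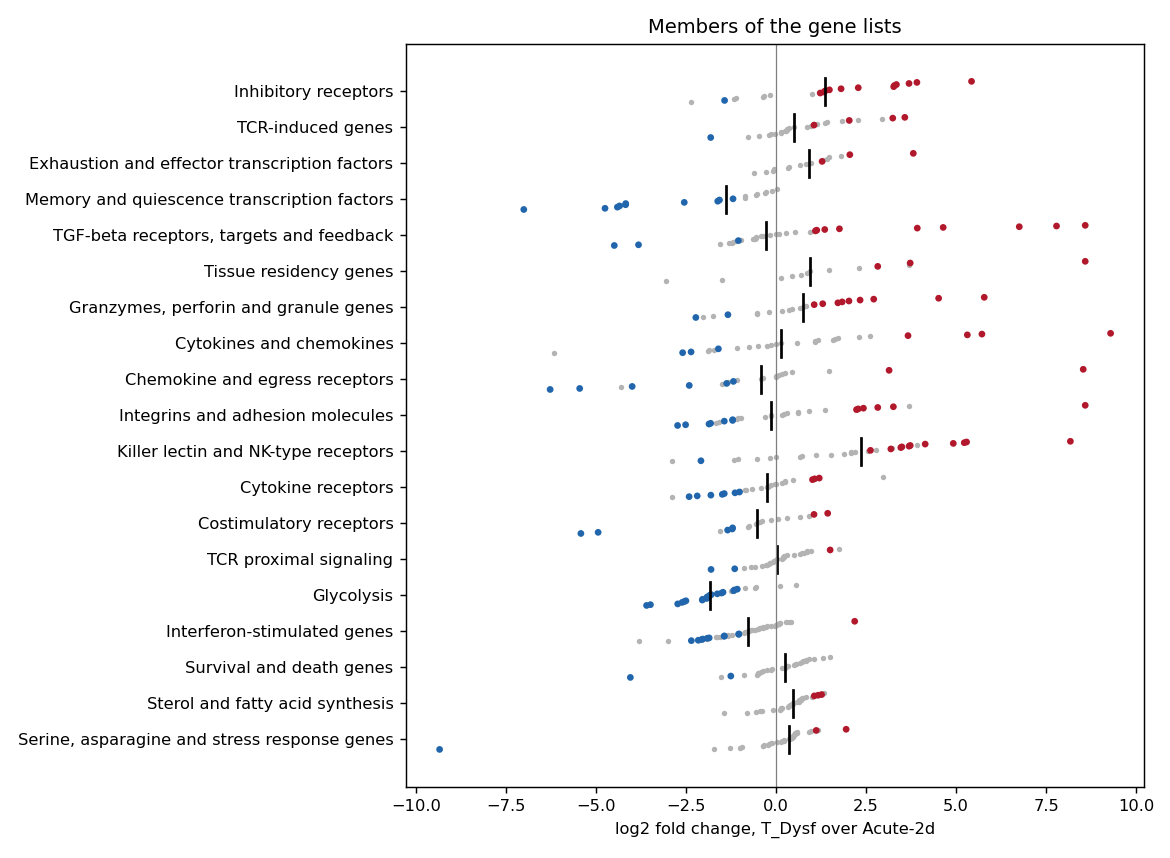
Each point is 1 gene of the list named on the left, placed by its log2 fold change of T_Dysf over Acute-2d, in red for DEGs that rose, blue for DEGs that fell and grey for the rest, and the black bar is the median of the list. Memory transcription factors and glycolysis lie mostly to the left of 0, inhibitory receptors, granule genes and killer lectins mostly to the right.

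Measured by normalized counts rather than by fold, the largest gains in T_Dysf were in *Gzma*, *Gzmb*, *Thy1*, *Itgae*, *Cd3g* and *Il2rb*. *Gzma* made up 0.0308% and 0.0312% of the Acute-2d totals and 1.78% and 1.65% of the T_Dysf totals, and *Itgae* 0.000471% and 0.000460% of the Acute-2d totals and 0.189% and 0.174% of the T_Dysf totals. The largest losses were in *H2-Q7*, *Pkm*, *Rps3*, *Aldoa*, *H2-Q6* and *Eno1*. *Aldoa* and *Eno1*, both glycolytic enzymes, fell from 37085 and 51899.8 to 12081 and 11173 and from 27654 and 37114 to 9605 and 8198 normalized counts. *Rps3*, a protein of the small ribosomal subunit, fell from 66015 and 69426 to 32487 and 34025, a log2 fold change of -1.03 ± 0.15 (SE, adjusted p = 0.0196). *H2-Q7* and *H2-Q6*, nonclassical MHC class I genes, share most of their sequence and had log2 fold changes of -1.56 and -1.49, which are uncertain for single members. Of these genes, *Gzma*, *Itgae* and *H2-Q6* kept the call in every alternative fit.

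Between Acute-7d cells, which had received peptide until day 7 and then rested, and Acute-2d cells, 41 genes (0.169% of all tested) were DEGs. None of the 23 genes described above by the largest folds was among the 41. *Itgae* had 71.4 and 73.7 normalized counts in Acute-7d and 80.4 and 50.2 in Effector, *Gja5* 1.12 and 2.02 and 1.83 and 2.01, and *Tgfb3* 17.9 and 14.1 and 19.2 and 14.04, so that the high values of these 3 genes stood in T_Dysf alone among the 4 groups. *Pdcd1* had 505 and 598 in Acute-7d and 4017 and 3043 in Effector. *Tcf7* stood at 9991 and 7789 in Acute-7d, below both Acute-2d libraries, with a log2 fold change of -1.04 over Acute-2d (adjusted p = 0.829).

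Several genes that fell in T_Dysf also stood lower in Acute-7d than in Acute-2d, though not past the test. *Vldlr* had 72.5 and 99.97 normalized counts in Acute-7d, a log2 fold change over Acute-2d of -3.38 (adjusted p = 0.425). *Pdk1* had 5383 and 5629, a log2 fold change of -0.90 (adjusted p = 0.257), and *P4ha2* 310.2 and 341, a log2 fold change of -2.54 (adjusted p = 0.697). *St6gal1* stood at 509 and 467, below both Acute-2d libraries, while *Pde2a*, at 686 and 677, lay within the range of the Acute-2d libraries. Acute-7d replicate 1 carries the RESUB prefix and, with both Effector libraries, had *Xist*, the RNA that silences 1 X chromosome in female cells, between 53.5 and 115 normalized counts, while the other 5 libraries had at least 21871. Set against Acute-7d, T_Dysf had a log2 fold change of -5.97 (adjusted p = 0.0184) for *Vldlr*, -2.70 (adjusted p = 0.00226) for *Pdk1* and 7.46 (adjusted p = 0.000580) for *Tgfb3*. In that comparison 5.57% of all genes were DEGs, and it shares the T_Dysf libraries with the one above.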

How the data were processed

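RNA-Seq was analysed in 8 libraries of cultured P14 CD8 T cells, with 2 libraries in each of 4 groups. Reads had been aligned with STAR to mm10 and quantified against RefSeq transcripts in Partek Flow. The deposited signal is the gene-level read estimate that the authors divided by a DESeq2 size factor for each library, and it is called normalized count here. The methods mention a filter on low counts that the table does not show. Strandedness is not given in the sources used here, so reads of overlapping antisense genes may be counted together.

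The value of 1 read was recovered from the low values, and between 72.0% and 74.6% of values up to 1000 reads were whole multiples of it within 0.02 reads in 7 libraries, but 51.0% in T_Dysf replicate 1. A count model was therefore not fitted. Read numbers, the floor of 3 reads and the intervals for genes with 1 to 3 reads (exact, 95%) use this value and cover counting error only.

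Tests were two-sided and used limma 3.58.1 in R 4.3.3 on log2(normalized count + 1), with 4 group means over the 8 libraries, 4 residual degrees of freedom and empirical Bayes moderation with trend. P-values were adjusted by Benjamini-Hochberg over 24303 genes. Log2 fold changes understate the change of low genes. The steps were tested on simulated data.

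Genes were named by a rule. It took the 12 DEGs with the largest log2 fold change in each direction among those with a mean of at least 100 normalized counts. For these 12 the libraries of T_Dysf and Acute-2d also had to be free of overlap. It further took the 6 with the largest gain or loss of counts, 2 to 6 members of each gene list and genes that the study names. Unnamed predicted genes and pseudogenes were passed over, several lists have more than 6 genes named, and results for some genes under the rule are not reported here. The genes, lists and tests were chosen with earlier results of these data known. Alternatives covered the libraries in the fit, covariates, scaling, pseudocount, filter, trend and thresholds, and a set of protein-coding genes alone was added after the data were seen.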

Additional observations from a re-analysis of the deposited data

How the results depend on the processing

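The number of DEGs between T_Dysf and Acute-2d, 1787, depended most on single libraries and on the threshold. With 1 library left out it ranged from 656 to 1867, where the lone library of a group is assumed to vary like the other groups, and the share of higher DEGs fell from 42.8% to 32.3% without Acute-2d replicate 2 and to 31.3% without T_Dysf replicate 2. It was 2882 at an adjusted p under 0.05 with no minimum fold, 615 at an adjusted p under 0.01 with a fold of 2 and 3517 at an unadjusted p under 0.05 with a fold of 2. The other settings of the limma fit gave between 1300 (the libraries of T_Dysf and Acute-2d alone) and 1989 (only genes with a maximum of at least 50), within 1.5 times the reported count. The members of the gene lists called, 158, ranged from 58 to 93 with 1 library left out and from 126 to 202 in the other settings. Of the 171 DEGs named, 71 kept the call whichever library was left out and 106 kept it in every setting that kept all 4 libraries, the block below included.

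The replicate numbers gave no ground for pairing: the correlation of deviations between same-numbered libraries was -0.03 to 0.12 over the 6 pairs of groups, above 0.1 in 1. With the replicate number as a block, 1344 genes were DEGs, 579 higher and 765 lower, and 129 list members were called.

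Among the genes named, directions turned for *Itgb7* and *Xbp1*, neither a DEG. *Itgb7* had a log2 fold change of 0.0631 after quantile normalization and -0.30 to 0.0184 with 1 library left out. *Xbp1* had -0.0287 with equal 75th percentiles, -0.0303 after quantile normalization and -0.0752 to 0.15 with 1 library left out.

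With 2 libraries a group, a change under the threshold does not show that the groups are alike, and *Cdh1*, *Lif*, *Ccl5*, *Egr3* and *Prdm1* passed in the fit of the 2 groups alone, with log2 fold changes of 3.70, -6.18, 2.60, 2.94 and 1.40. The floor of 3 reads was 2.59 to 3.24 normalized counts in the 4 libraries. Whether peptide, TGF-β1 or time since the last stimulus moved a gene cannot be told apart here.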

Other observations

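Genes of a further family were chosen after their values were seen. Several receptors that act through G proteins rose in T_Dysf, and only rises were picked. Other such receptors fell, among them *Ccr7*, *S1pr1* and *Cxcr4* above, and the whole family was not counted. *Adgrg1*, which encodes GPR56, a receptor of cytotoxic lymphocytes, had 94.8 and 107 normalized counts in Acute-2d and 9957 and 10599.9 in T_Dysf, a log2 fold change of 6.66 ± 0.59 (SE, adjusted p = 0.00595). *Vipr2*, a receptor for vasoactive intestinal peptide, had 44.2 and 16.2 and 2508 and 2813, a log2 fold change of 6.57 ± 0.52 (SE, adjusted p = 0.00484). *Adrb1*, the β1-adrenergic receptor, had 3.16 and 7.56 and 396 and 514, a log2 fold change of 6.24 ± 0.95 (SE, adjusted p = 0.0210). *Glp1r*, the receptor for glucagon-like peptide 1, had 13.7 and 4.32 and 409 and 318, a log2 fold change of 5.35 ± 0.63 (SE, adjusted p = 0.0115). These adjusted p-values are from limma with Benjamini-Hochberg adjustment.

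Lists of cell cycle and ribosomal protein genes were also added after the data were seen. Of 43 S phase genes, 0 rose and 1 fell, with a median log2 fold change of 0.87, and of 54 G2/M phase genes 0 rose and 0 fell by limma, with a median of 1.23 and 49 of 54 genes above 0. At an unadjusted p under 0.05, 20 S phase and 14 G2/M genes were higher and 2 and 0 lower, beside 6735 of the 24303 genes tested. The G2/M share was thus no larger than that of all genes, while the S phase share was larger. The numbers of DEGs in both lists rested on the libraries in the fit and on the filter. With a term for the RESUB libraries 1 S phase and 10 G2/M genes were called higher, in the fit of T_Dysf and Acute-2d alone 7 and 7, and among genes with a mean of at least 50 they were 14 and 8. Of 83 cytosolic ribosomal protein genes, 0 rose and 9 fell, with a median of -0.57, and their share was 4.90% and 5.28% of the totals in Acute-2d and 3.67% and 3.28% in T_Dysf. At an unadjusted p under 0.05, 45 of them were lower and 4 higher, again beside 6735 of the 24303 genes tested. The T_Dysf libraries disagreed for some, with *Rpl17* at 52.0 and 802 normalized counts in replicates 1 and 2 and *Rpl39* at 6288 and 1842. Of the 138 entries under 3 reads in T_Dysf replicate 1 alone, 125 are pseudogenes. Whether reads of ribosomal protein genes were assigned differently in that library was not tested. With 1 library left out, between 0 (without Acute-2d replicate 2) and 14 (without T_Dysf replicate 2) were called lower.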
